A study of Mus musculus with 48 samples.

Results

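The loci examined here were those of a genome-wide table of captured methylated DNA that overlapped, on the GRCm38 mouse assembly, the body of 26 genes of the GABA system or the 5 kb on either side of it. These genes encode receptor subunits, the enzymes that make and break down GABA, its transporters, and proteins that hold or carry its receptors. Of 187695 loci in the table, 152 (0.081%) belonged to 23 of the 26 genes, while Gabra5, Gabra6 and Gabrq had none. DNA came from the amygdala of 4-month-old male mice of the C57BL/6 strain by the labels, backcrossed to C57BL/6N by the study's methods. Wild-type (Tph2+/+), heterozygous (Tph2+/-) and null (Tph2-/-) mice were each reared as C or as MS, which makes 6 groups of 8 mice. Tph2 encodes tryptophan hydroxylase 2, the enzyme that starts serotonin synthesis in neurons, and the null allele was carried in every cell from conception. In MS (maternal separation) the litters spent 3 h daily without their mother over postnatal days 2 to 15, and C litters were reared by standard facility practice. Mice of all 6 groups were offspring of Tph2+/- parents and had gone through behavioural tests before tissue was taken, so no group was naive to testing. A library was made from the pooled amygdalae of both hemispheres of 1 mouse.

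GABA is the main inhibitory transmitter of the adult brain. Glutamate decarboxylases make it from glutamate, a vesicular transporter loads it, and it then acts on pentameric chloride channels of the GABA-A type and on GABA-B receptors, which couple to G proteins. Membrane transporters take it up again, and GABA transaminase breaks it down in mitochondria. In the amygdala, inhibitory interneurons and intercalated cells use it to gate the output of principal neurons. Methylation at CpG dinucleotides can be read by capture with a methyl-CpG-binding domain, which pulls down fragments with methylated CpG and recovers fragments with many methylated CpG best. CpG-rich promoters of genes in use are usually unmethylated, while gene bodies and repeats are usually methylated.

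Both ends of this range are shown here as sequence, with every CpG in capitals and all other bases in lower case, 5′ to 3′ on the strand of the gene. The promoters of Gabbr2 and Gabrb2 are shown because neither overlapped a locus, and the stretches from loci of Gad2 and Gabrr3 because these loci carry comparisons reported further on. Promoter windows are RefSeq's on GRCm38.p6, 250 bases before to 50 after a start, and each locus is shown by the 300 bases that hold most CpG.
Gabbr2 promoter, chr4:46991665-46991964, minus strand, 46 CpG: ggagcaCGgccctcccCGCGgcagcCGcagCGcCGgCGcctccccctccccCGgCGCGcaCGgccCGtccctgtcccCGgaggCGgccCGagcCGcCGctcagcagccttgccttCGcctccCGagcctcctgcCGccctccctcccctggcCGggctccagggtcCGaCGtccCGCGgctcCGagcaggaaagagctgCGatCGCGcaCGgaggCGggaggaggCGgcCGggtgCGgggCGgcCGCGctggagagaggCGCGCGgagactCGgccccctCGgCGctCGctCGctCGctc
Gabrb2 promoter, chr11:42420190-42420489, plus strand, 11 CpG: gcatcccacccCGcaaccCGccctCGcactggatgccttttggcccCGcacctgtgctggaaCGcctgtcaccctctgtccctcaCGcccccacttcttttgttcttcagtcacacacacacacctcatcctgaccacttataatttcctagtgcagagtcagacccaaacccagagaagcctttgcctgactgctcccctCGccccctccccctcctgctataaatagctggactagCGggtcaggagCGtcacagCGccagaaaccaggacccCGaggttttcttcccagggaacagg
Gad2 coding exon locus, chr2:22630141-22630440, plus strand, 5 CpG: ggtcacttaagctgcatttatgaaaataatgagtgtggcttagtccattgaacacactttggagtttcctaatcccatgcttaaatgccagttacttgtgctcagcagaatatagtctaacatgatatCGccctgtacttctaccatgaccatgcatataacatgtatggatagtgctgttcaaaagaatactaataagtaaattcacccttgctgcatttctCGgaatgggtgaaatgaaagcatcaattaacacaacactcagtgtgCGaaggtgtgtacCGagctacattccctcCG
Gabrr3 intron locus, chr16:59457587-59457886, plus strand, 20 CpG: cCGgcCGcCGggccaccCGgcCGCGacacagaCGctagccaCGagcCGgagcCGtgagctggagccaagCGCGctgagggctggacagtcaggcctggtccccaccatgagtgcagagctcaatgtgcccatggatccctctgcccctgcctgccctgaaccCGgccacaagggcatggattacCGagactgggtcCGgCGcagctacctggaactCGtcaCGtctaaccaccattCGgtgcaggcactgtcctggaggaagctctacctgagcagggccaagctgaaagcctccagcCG
The Gabrr3 stretch holds 20 CpG and the Gad2 stretch only 5.

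No RefSeq promoter window of these genes overlapped a locus. RefSeq listed 30 promoter windows for 24 of the 26 genes, with a median of 11.5 CpG and a range of 0 to 46, and a locus overlapped 0 of the 30. Over all 32851 RefSeq windows on the chromosomes of the table, 10.5% overlapped a locus. Among windows with 10 or more CpG the share was 5.62% over the genome and 0 of 17 here, and among windows with fewer it was 14.2% over the genome and 0 of 13 here. The nearest locus lay 163 bp from a window, at Slc6a13, the gene of a plasma membrane GABA transporter, and the median distance was 6626 bp. Gad1 had a locus 327 bp upstream of its GENCODE gene start (chr2:70551975-70552745), but this position overlapped the antisense gene Gad1os and lay 9134 bp from the RefSeq promoter window of Gad1.

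Most loci lay inside the genes, and their number differed from gene to gene, also within a family and per length of the gene window. Of the 152 loci, 88 were intronic, 42 overlapped a coding exon, 1 an untranslated exon and 2 a non-coding exon, 10 lay in the 5 kb upstream and 9 in the 5 kb downstream. Pooled over their windows, the 26 genes held 4.12 loci per 100 kb, against 8.43 for all protein-coding genes, yet 88.5% had at least 1 locus against 78.5% of protein-coding genes. Gabbr2, the GABA-B subunit that couples to G proteins, had 30 loci (8.83 per 100 kb), Abat, the transaminase, 18 (15.2), Gabrg3, a gamma subunit, 14 (2.06), and Slc6a13 had 13 (27.4). Gabbr1, the GABA-B subunit that binds GABA, had 1 locus (2.56 per 100 kb), as had Gabra2 (0.675) and Gabra4 (1.01), both alpha subunits, and Slc32a1, the vesicular transporter, in a short window (6.67).

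**Figure D1:**
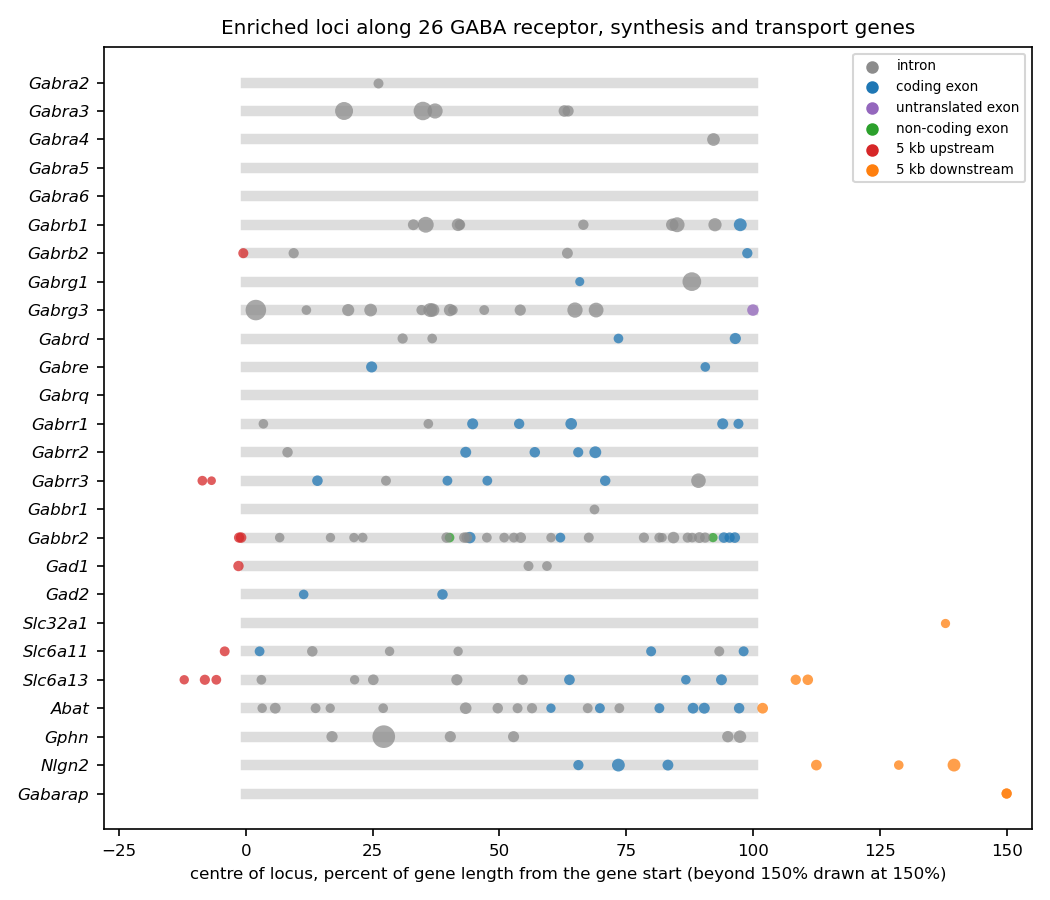
Position of the 152 loci along the 26 genes, as the centre of the locus in percent of the gene length from the gene start (x axis), with 1 grey bar per gene (y axis), point area growing with the level in CPM per kb and colour giving the annotation. Gabra5, Gabra6 and Gabrq have no point, most points lie within the gene bodies, and 10 lie upstream of a gene start.

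The share of loci in repeats differed between genes. All 7 loci of the alpha subunits, 8 of 13 of the beta subunits and 12 of 16 of the gamma subunits had over 50% of their bases in annotated repeats, against 0 of 5 loci of the GABA-synthesising enzymes Gad1 and Gad2, 2 of 22 of the transporters, 2 of 31 of the GABA-B subunits, 1 of 20 of the rho subunits and 0 of 6 of the delta and epsilon subunits. In between were Abat, with 3 of 18, and the genes of proteins that hold or carry the receptors, with 5 of 14. All 5 of the latter were in Gphn, which has 6. Single genes set these counts, since Gabra3 held 5 of the 7 alpha loci, and of the beta loci over 50% repeats all 8 were in Gabrb1, which has 9, and 0 in Gabrb2, which has 4. Over all 152 loci the share was 26.3%, near the 25.7% of the whole table. Levels are given in CPM, counts scaled to a common library total after TMM, and per kb of locus width (CPM per kb) wherever loci or genes are compared. The repeat-rich loci had a median level of 3.85 CPM per kb and the 112 others 2.62. In the whole table the medians were 3.14 and 2.64. Of the 20 loci with the highest level, 15 were repeat-rich.

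As a mean of all 48 libraries, the highest level was 18.3 CPM per kb in an intron of Gphn, which encodes gephyrin, the scaffold under inhibitory synapses (chr12:78350486-78351574). That locus held 64 to 558 counts per library and varied most of all members, with a coefficient of variation of 56.2%, while only 19% of its bases were repeats. Next came introns of Gabrg3 (14.9 CPM per kb, chr7:57372719-57375178), Gabrg1 (12.1, chr5:70761133-70763058) and Gabra3 (11.8, chrX:72577645-72579569, and 11.1, chrX:72612657-72614218), each with over 80% repeats. The lowest was 1.57 CPM per kb, upstream of Gabrr3. Level and CpG density were related over the 152 loci (Spearman's rho 0.52 across loci, 0.45 over the whole table), a description only, since the loci share libraries and base composition. Most loci rested on few reads, with a median mean count of 26.9 per library and a median coefficient of variation of 30.1% over the libraries used.

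**Figure D2:**
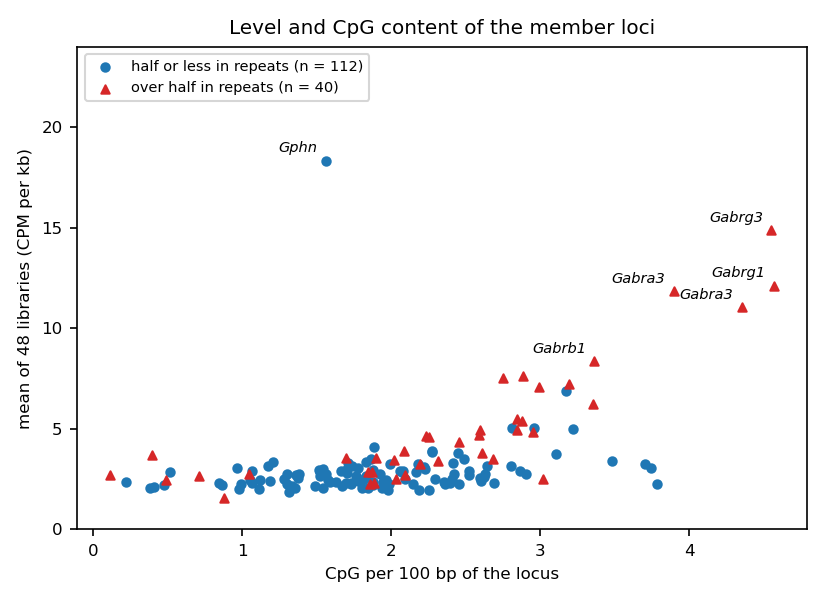
Mean level of the 152 loci (y axis, CPM per kb, mean of 48 libraries) against CpG per 100 bp of the locus (x axis). Red triangles, loci with over 50% repeats, make up 15 of the 20 highest, and the Gphn locus at 18.3 CPM per kb stands above the trend.

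Library totals ran from 7724481 to 14133801 counts, of which 0.0615 to 0.0890% fell in the 152 loci. No 2 libraries of a group held identical values. The deleted gene was checked first. In the body of Tph2, 15 loci were captured, and none passed the limits used here in Tph2-/- against Tph2+/+ by edgeR. The 15 loci therefore give no check of the genotype labels. Over all loci, 26 had an edgeR adjusted p under 0.05 in that comparison, 20 in C libraries alone and 15 in MS libraries alone. For MS against C, 0 loci reached that level within each genotype and 24 over genotypes. Whether such loci bear out the genotype labels was not tested. All C libraries have sample numbers S1 to S17 or S42 to S48 and all MS libraries S18 to S41, so that MS and whatever went with sample order cannot be told apart. A set of MS libraries also stood apart. The slope of a library's log2 levels on CpG density, per SD of density and computed without the 152 loci, was 0.242 in S19, 0.160 in S22, 0.131 in S24 and 0.0903 in S21, above the highest C library (0.0579). In S26 it was 0.0652, also above C, and in S18 (0.0509), S23 (0.0388) and S25 (-0.0514) it lay within the range of C. The libraries left out of the fits had 0.333 (S20) and 0.117 (S36), so a slope above C also occurred after S26. No label marks a break after S26. The medians of the slope were 0.078 for the 8 libraries used of S18 to S26, -0.042 for S27 to S41, -0.022 for S1 to S17 and -0.046 for S42 to S48. S19 exceeded all 24 C libraries at 47 of the 152 loci, S21 at 30, S22 at 19, S24 at 16 and S23 at 12, against 2 to 10 in the other MS libraries used. The same count was not made over all loci, so these values do not show whether the members differ from the table as a whole. S20 and S36, which had the lowest totals of the Tph2-/- MS group, were left out of all fits, and MS results are also given without S18 to S26. Because DNA came from whole tissue, a change in methylation per cell and a change in the share of a cell type cannot be told apart.

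MS was first compared with C over the 3 genotypes. A locus was counted as changed where the log2 fold change exceeded 0.2 in size and the p of edgeR's quasi-likelihood test, before adjustment, was under 0.01. Of the 152 loci, 5 passed, or 3.29%, and of all loci 3.63% passed, so the members were called about as often as the table as a whole. The 5 were 4 higher (2.28% of all loci) and 1 lower (1.35%). None had a Benjamini-Hochberg adjusted p under 0.05 over all loci, and 24 of all 187695 did. At an unadjusted p under 0.05 there were 22 of 152, 18 of them higher in MS, where 12.2% of all loci reached that level. The median log2 fold change was 0.04 over the 152 loci and 0.00 over all loci. The p-values measure the spread between mice. By the study's methods whole litters were assigned to MS or C, and the labels do not give the litter. Mice of 1 litter could therefore not be grouped, and the fit treats all mice as independent.

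The locus with the smallest p lay upstream of Gabrb2, a beta subunit whose face forms part of the GABA binding site. In Tph2+/+ mice its level was 0.939 to 2.29 CPM under C (median 1.67) and 2.05 to 4.31 under MS (median 2.55). Heterozygotes had 0.652 to 2.99 CPM under C (median 2.13) and 1.49 to 2.87 under MS (median 1.89). Null mice had 1.59 to 2.19 CPM under C (median 1.80) and 1.58 to 5.20 under MS (median 2.25). All groups overlapped their counterpart, narrowly in Tph2+/+, and MS was higher in the median of 2 of the 3 genotypes. Over genotypes the log2 fold change was 0.48 (SE 0.13, edgeR adjusted p = 0.136). Of the libraries used, the 4 highest were S19 (5.20 CPM), S24 (4.48), S21 (4.31) and S23 (4.25), and 14 MS libraries of S27 to S41 lay at 1.49 to 2.67 with a median of 1.99, against 1.83 in the 24 C libraries. Without S18 to S26 the log2 fold change was 0.14 (SE 0.15) and did not pass.

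The other loci higher in MS were in Gabrr3, Gabrb1 and Gabrg3, and their highest libraries were also among S18 to S24. An intron of Gabrr3, a rho subunit, carried 9.62 to 19.3 CPM in the C libraries and 11.4 to 30.6 in the 8 libraries of S18 to S26 (chr16:59457235-59459473). On the log2 scale MS was higher by 0.30 (SE 0.09, edgeR adjusted p = 0.173). An intron of Gabrb1, another beta subunit, carried 15.5 to 26.8 CPM in C and 16.9 to 36.04 in S18 to S26 (chr5:72073918-72077109), where the difference was 0.23 on that scale (SE 0.07, edgeR adjusted p = 0.173). The Gabrg3 intron with the second highest level of all members carried 16.4 to 43.8 CPM in C and 24.8 to 89.5 in S18 to S26, with 0.41 (SE 0.15, edgeR adjusted p = 0.254). The 14 libraries of S27 to S41 lay at 11.01 to 18.5 CPM for Gabrr3, 18.1 to 27.5 for Gabrb1 and 18.4 to 41.5 for Gabrg3, largely in the range of C. Without S18 to S26 the log2 fold changes were 0.06 for Gabrr3, 0.07 for Gabrb1 and -0.01 for Gabrg3, none past the limits. The S20 library, left out, held 184 CPM at the Gabrg3 locus, above every other library.

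A different locus of Gabrg3 was lower in MS (chr7:57071500-57072413), and it has only 2 CpG in 914 bp. Its C and MS medians were 2.09 and 1.72 CPM for Tph2+/+, 2.06 and 2.05 for Tph2+/-, and 2.25 and 1.78 for Tph2-/-, with ranges that overlapped in each genotype. The log2 fold change was -0.44 (SE 0.14, edgeR adjusted p = 0.188), and -0.38 without S18 to S26, where it did not pass. In the absence of S18 to S26, 4 members passed in MS against C over genotypes, none of them among these 5. The share of all loci past the limits in the fits without S18 to S26 is not given here, so this count is not set against the table. The 4 were a coding exon locus of Gad2 (chr2:22649486-22650498, 0.40), the single locus of Slc32a1 (-0.51), a locus of Slc6a13 (0.34) and one of Gabrr2 (0.35), with edgeR adjusted p from 0.640 to 0.783.

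**Figure D3:**
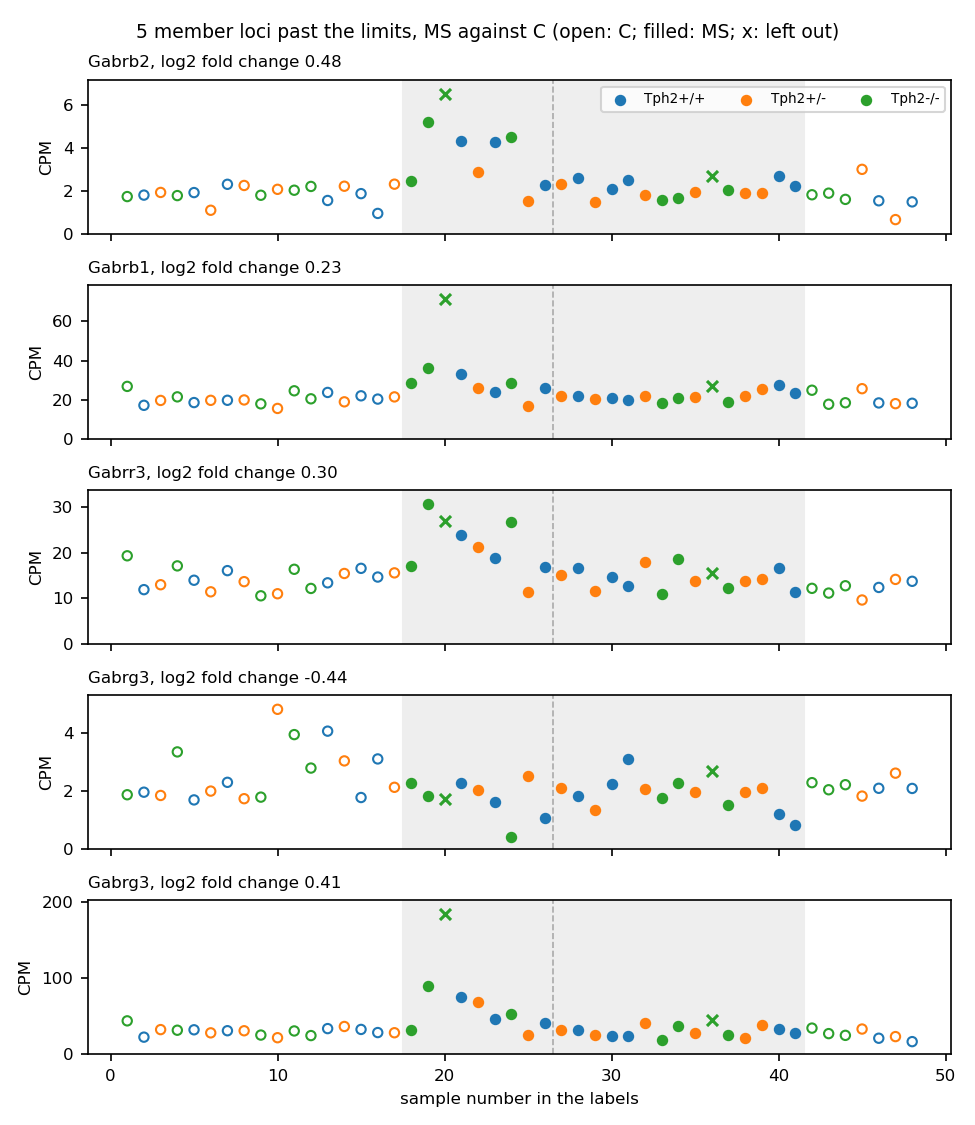
Level in CPM (y axes, each from 0) of the 5 loci past the limits in MS against C, by sample number (x axis), with open points for C, filled points for MS, colour for genotype and crosses for the 2 libraries left out. The grey band holds the MS libraries and the dashed line ends S26; in the 4 loci with a positive log2 fold change the high points are at S18 to S24, and after the line the filled points lie largely in the range of C.

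The direction of the MS difference went with CpG density. Of the 15 members with at least 3 CpG per 100 bp, 12 had a higher level in MS and the median of their log2 fold changes was 0.23. Of the 137 others 81 did, and their median was 0.03. Of the 15, 3 lie in Gabbr2, 2 each in Nlgn2, Gabra3, Gabrg3 and Gabrb1, and 1 each in Gabra2, Gabrg1, Gabrr3 and Gabre. Without S18 to S26, 4 of the 15 were higher (median -0.06). With an offset for CpG density fitted in each library, 7 of the 15 were (median -0.01). Across the 152 loci Spearman's rho between fold change and CpG density was 0.35, -0.07 without S18 to S26, and 0.01 with the offset. The offset removes each library's relation to CpG density by construction, and S18 to S26 hold the highest slopes of the libraries used. Neither setting is therefore a test of that relation. None of these values was computed over all loci, so they do not show whether the members differ from the table as a whole. The loci share libraries, and the part of CpG density in the MS difference was not tested.

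Within Tph2+/+, 3 of 152 loci passed (1.97%, against 1.31% of all loci), all higher in MS (0.67% of all loci). These were the Gabrb2 upstream locus (log2 fold change 0.76, SE 0.23), the Gabrb1 intron locus (0.32, SE 0.12) and a coding exon of Gabrr2, a rho subunit (chr4:33084027-33085048). At the Gabrr2 locus the C libraries lay at 1.22 to 4.48 CPM (median 2.15) and the MS libraries at 2.102 to 4.40 (median 3.47), overlapping mainly through 1 high C library. Its log2 fold change was 0.57 (SE 0.20), and it was 0.69 without S18 to S26, where it still passed. There the values of Gabrb2 (0.52) and Gabrb1 (0.21) did not pass. For these loci, adjusted p-values of edgeR ran from 0.749 to 0.756.

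Within Tph2+/-, 0 of 152 loci passed the limits by edgeR's quasi-likelihood test, against 0.779% of all loci, and by DESeq2 the count was also 0. At an unadjusted p under 0.05 there were 2, against 4.36% of all loci, both lower in MS. The smallest p was at a coding exon of Gad2, which encodes the decarboxylase bound to synaptic vesicles (chr2:22629968-22630781). Its level was 1.91 to 3.25 CPM in C and 0.912 to 2.29 in MS (log2 fold change -0.48, SE 0.23).

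Within Tph2-/-, 4 of 152 loci passed (2.63%, against 1.48% of all loci), 2 higher (0.843% of all) and 2 lower (0.632%), on 6 MS libraries. Without S18 to S26 only S33, S34 and S37 of these libraries remain. The lower loci were 1 of the 2 loci of Gad2 and 1 of the 3 of Gad1. The Gad2 exon locus lay at 1.80 to 2.93 CPM in C (median 1.92) and at 1.02 to 1.81 in MS (median 1.25), so that the groups met at a single point. Its log2 fold change was -0.73 (SE 0.26), and -0.83 without S18 to S26, where it did not pass. The other Gad2 locus, also at a coding exon (chr2:22649486-22650498), went the other way, with 0.38 (SE 0.22), and it passed without S18 to S26 (0.78, SE 0.24). In that fit the Slc32a1 locus (-1.16, SE 0.37) and a locus of Abat (-0.88, SE 0.32) also passed, both lower in MS. An intron of Gad1, the cytosolic decarboxylase that makes most GABA (chr2:70581775-70582482), lay at 1.49 to 3.14 CPM in C (median 1.60) and at 0.679 to 1.92 in MS (median 0.989). There the log2 fold change was -0.78 (SE 0.28), and -0.52 without S18 to S26, where it did not pass. The Gad2 locus rested on 12 to 34 counts per library and the Gad1 locus on 7 to 33 in these 2 groups, so that a few reads decide either. Both higher loci were those of Gabrr3 (0.48, SE 0.16) and upstream of Gabrb2 (0.66, SE 0.24), and without S18 to S26 neither was higher (-0.01 and -0.07). The lowest adjusted p of the 4, by edgeR's quasi-likelihood test, was 0.655.

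The genotypes were then compared. In Tph2-/- against Tph2+/+, averaged over C and MS, 1 of 152 loci passed (0.658%, against 0.748% of all loci), and it was lower (0.417% of all). It lay downstream of Nlgn2, the neuroligin of inhibitory synapses (chr11:69818589-69819228). Its C and MS medians were 1.64 and 1.36 CPM for Tph2+/+, and 0.984 and 1.04 for Tph2-/-, with wide overlap. The log2 fold change was -0.57 (SE 0.21, edgeR adjusted p = 1.0), on 2 to 32 counts per library. In Tph2+/- against Tph2+/+, 2 of 152 passed (1.32%, against 0.546% of all loci), both lower (0.28% of all). The first was a coding exon locus of Abat, the transaminase, where Tph2+/+ had 2.56 to 4.16 CPM under C (median 2.86) and 2.37 to 4.55 under MS (median 3.10). Heterozygotes had 1.02 to 4.13 CPM under C (median 2.03) and 1.94 to 3.34 under MS (median 2.59). Its log2 fold change was -0.41 (SE 0.14). The other was in an intron of Slc6a11, a GABA transporter of astrocytes (chr6:114146465-114147123), with medians of 1.99 and 2.32 CPM in Tph2+/+ and 1.47 and 1.85 in Tph2+/-. Here the log2 fold change was -0.47 (SE 0.17). Both had an edgeR adjusted p of 1.0. In C libraries alone and in MS libraries alone, a comparison added after the data were seen, the Nlgn2, Abat and Slc6a11 loci kept their sign and did not pass. Among all loci 0.425% passed in C and 0.836% in MS for Tph2-/-, and 0.529% and 0.712% for Tph2+/-, while of the 152 loci 1 passed in MS for Tph2-/-, in Gabrg3 (chr7:57306810-57307446, log2 fold change -0.88), and 0 by edgeR in the 3 other comparisons. The 2 genotype comparisons share the Tph2+/+ libraries.

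**Figure D4:**
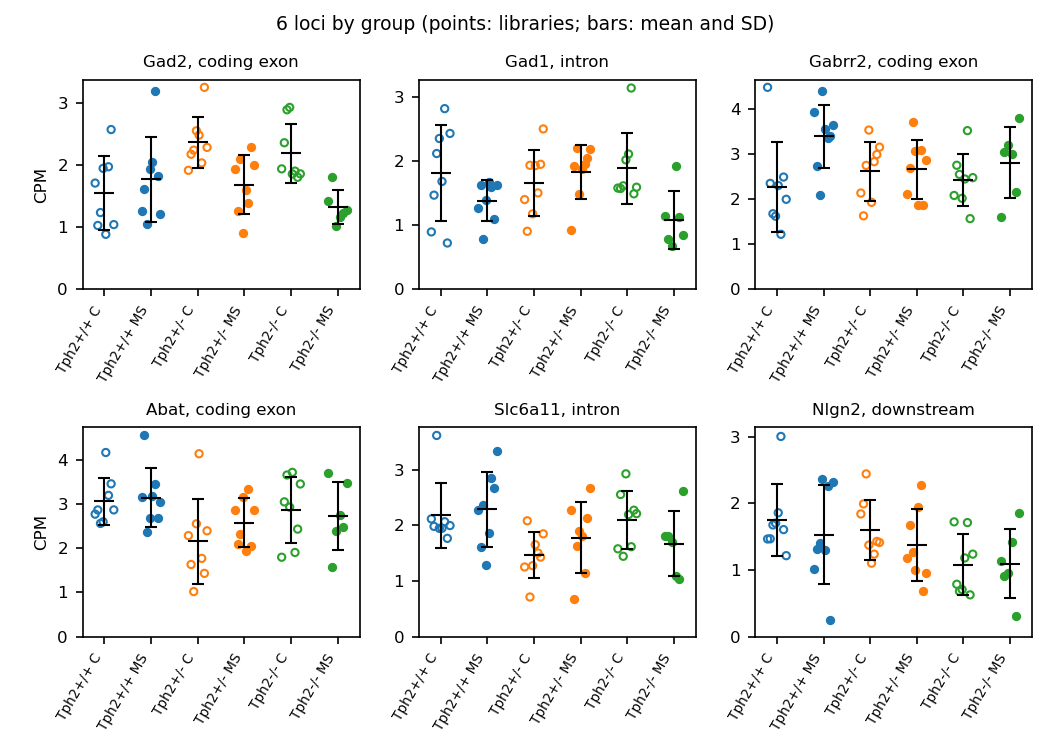
Level in CPM (y axes, each from 0) of 6 loci in the 6 groups (x axes), with 1 point per library used, open for C and filled for MS, and black bars for the mean and SD. Within each genotype the C and MS points overlap in every panel; the mean of Gad2 is lowest in Tph2-/- MS, that of Gad1 likewise, and that of Abat is lowest in Tph2+/- C.

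The interactions ask whether MS acted differently by genotype. GE1 is the MS difference in Tph2+/- less that in Tph2+/+, and GE2 that in Tph2-/- less that in Tph2+/+. For GE1, 1 of 152 loci passed (0.658%, against 0.626% of all loci), in an intron of Gabrg3 that is 94% repeats (chr7:57114851-57119466). Its mean went from 18.9 CPM ± 1.6 (SD, n = 8) in C to 21.97 ± 4.9 in MS in Tph2+/+ and from 21.7 ± 3.5 to 18.7 ± 1.6 in Tph2+/-, an interaction of -0.42 (SE 0.16, edgeR adjusted p = 1.0). The highest of the libraries used, at 32.8 CPM, was S21. Without S18 to S26 the interaction was -0.35, and with the replicate number as a block -0.41, and neither passed. For GE2, 1 of 152 passed (0.658%, against 0.558%), the Gad2 exon locus. Its mean went from 1.55 CPM ± 0.59 (SD, n = 8) to 1.77 ± 0.68 in Tph2+/+ and from 2.19 ± 0.47 to 1.32 ± 0.27 (n = 6) in Tph2-/-, an interaction of -0.94 (SE 0.35, edgeR adjusted p = 1.0). Without S18 to S26, which leaves S33, S34 and S37 in Tph2-/- MS, it was -1.24 (SE 0.42) and still passed. It did not pass with total counts in place of TMM (-0.91), with the CpG offset (-0.89) or with the replicate block (-0.90), and a mean count of 20 or more left the locus out. The GE1 value of the same locus was -0.69, which did not pass. Both interactions and the MS comparison share the Tph2+/+ libraries.

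**Figure D5:**
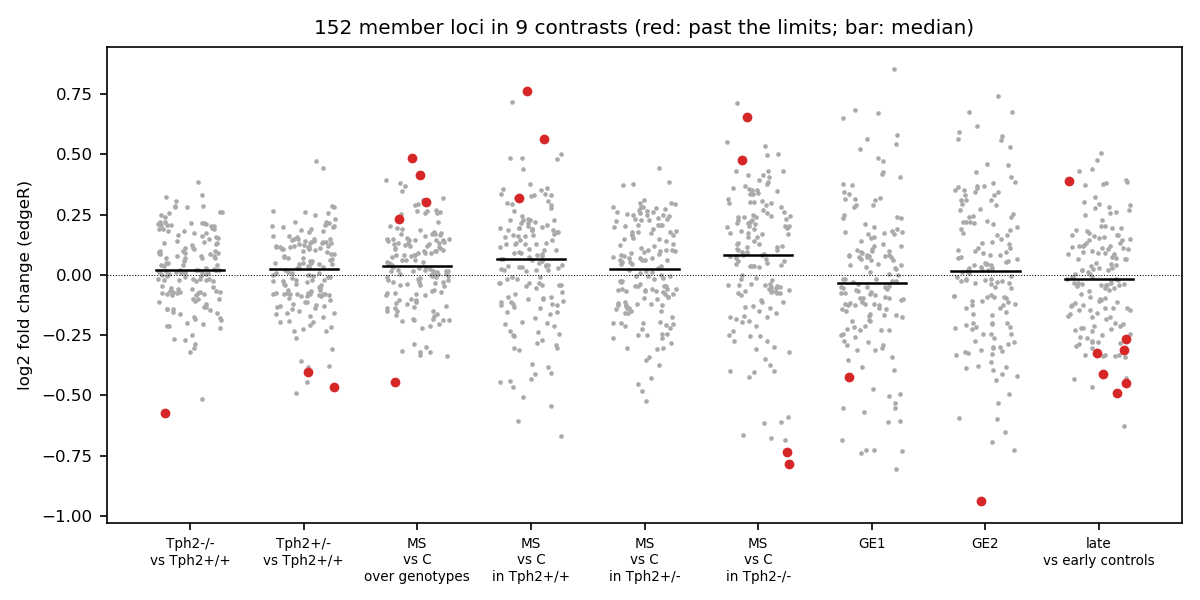
Log2 fold change from edgeR (y axis) of the 152 loci in 9 contrasts (x axis), with grey points for loci that did not pass the limits, red points for those that did and bars for the median over the 152. From 0 to 7 loci are red per contrast, and the medians lie between -0.03 and 0.08.

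No C mouse was separated, so the C libraries show what differed between early and late sample numbers in the absence of MS. S42 to S48 were compared with S1 to S17, with genotype as a term. Of the 152 loci 7 passed (4.61%, against 3.29% of all loci, 1.45% higher and 1.84% lower). No MS or genotype comparison had as many members past the limits, but over all loci MS over genotypes had the larger share (3.63%). The 1 higher in the later libraries lay in an intron of Gabrb1 (chr5:72069445-72072217, log2 fold change 0.39, SE 0.10, edgeR adjusted p = 0.0734). The 6 lower were in Gabbr2 (-0.49), Nlgn2 (-0.45), Abat (-0.41), Gabrg3 (-0.32 and -0.27) and Gabrg1 (-0.31), and the last Gabrg3 locus is the one higher in MS. Of the 15 CpG-dense loci 3 were higher in the later C libraries, and the median over the 15 was -0.25 on the log2 scale. Neither value was computed over all loci. With the replicate number as a block none of the 7 passed by edgeR. The later C libraries carry the replicate numbers 6 to 8, and number 6 is early in Tph2+/+ and Tph2+/- and late in Tph2-/-, so order and number overlap for the most part.

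Gene by gene, counts were summed over the loci of a gene and tested among 37004 genes with a locus. For MS over genotypes 0 of 23 sums passed (against 3.29% of all genes), with 7 at an unadjusted p under 0.05 by edgeR (17.9% of all genes), all higher in MS, and 2 past the limits by DESeq2. The smallest p were those of Gabrr3 (log2 fold change 0.14, SE 0.05), Gabrb2 (0.16, SE 0.06), Gabrb1 (0.18, SE 0.07) and Gabra3 (0.30, SE 0.12). Their values were, without S18 to S26, 0.05, 0.12, 0.02 and -0.05. Sums of Gad2 (0.02), Slc32a1 (-0.02), Abat (-0.03), Gabbr2 (0.02) and Slc6a13 (-0.04) were near 0, each within 1 SE. Without S18 to S26 the Slc32a1 sum was -0.51 (SE 0.18) and passed the limits. The others were 0.15 for Gad2, -0.07 for Abat, -0.01 for Gabbr2 and 0.03 for Slc6a13 in that fit, none past the limits. With S18 to S26 in the fit, the smallest edgeR adjusted p over the 23 was 0.133.

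In single genotypes 2 sums passed. In Tph2+/- (1 of 23, against 0.662% of all genes) Slc6a11 was higher in MS, from 12.04 to 16.4 CPM in C (median 12.8) to 13.4 to 16.7 in MS (median 15.6). Its log2 fold change was 0.23 (SE 0.08, edgeR adjusted p = 0.995) and stayed past the limits without S18 to S26 (0.24). The sum covers 8 loci, of which none passed alone. In Tph2-/- (1 of 23, against 2.16%) Gabrb2 was higher in MS, from 6.01 to 9.62 CPM in C (median 8.23) to 8.92 to 10.5 in MS (median 9.76), with 0.31 (SE 0.11, edgeR adjusted p = 0.415) and 0.28 without S18 to S26, where it did not pass. In Tph2+/+ 0 of 23 passed (against 1.43%) by edgeR's quasi-likelihood test, with 3 at an unadjusted p under 0.05 (7.2% of all genes) and 1 past the limits by DESeq2. The smallest p there was for Gphn (0.39, SE 0.15), where 1 library, S21, held 95.2 CPM and the next 60.9. For Tph2-/- and Tph2+/- against Tph2+/+, 0 of 23 passed (against 0.603% and 0.389%) by edgeR's test and by DESeq2. At an unadjusted p under 0.05 there were 1 and 3 (4.49% and 3.01% of all genes). The smallest were Gabrd, the delta subunit of extrasynaptic receptors, in Tph2-/- (0.17, SE 0.08), and the single Gabra2 locus in Tph2+/- (-0.38, SE 0.16). In C libraries alone 1 of 23 sums passed for Tph2+/- (against 0.419% of all genes), that of Gabrd. Neither GE1 nor GE2 had a sum past the limits (against 0.5% and 0.511%) or at an unadjusted p under 0.05 (3.08% and 3.28% of all genes) by edgeR, or past the limits by DESeq2. Between later and earlier C libraries 0 of 23 passed (against 4.1%) by edgeR and by DESeq2, with 2 at an unadjusted p under 0.05 (12.5% of all genes).

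Other genes of GABA signalling were counted in the same way. Of 25 such genes, which cover the succinate step after Abat, chloride transporters, receptor chaperones, GABA-B effectors and interneuron transcription factors, 18 had a locus, 130 loci in all. For MS over genotypes 3 of these 130 passed, in Slc12a5 (the neuronal chloride exporter), Aldh5a1 and Plcl1, 2 higher and 1 lower (3.63% of all loci passed), and of the 18 gene sums 1, that of Slc12a5 (3.29% of all genes). GE1 and GE2 had 1 locus each, both in Iqsec3 (0.626% and 0.558% of all loci). Tph2-/- against Tph2+/+ had 2 loci and Tph2+/- against Tph2+/+ had 1 (0.748% and 0.546% of all loci). Of marker genes of brain cell types, MS over genotypes passed the limits at 0 of 58 loci for neurons, 0 of 20 for oligodendrocytes, 1 of 38 for astrocytes (Gja1, lower) and 1 of 41 for microglia (P2ry12, lower), where 3.63% of all loci passed. Methylation at these genes does not measure how many such cells a sample held, so the tissue label could not be checked by markers.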

How the data were processed

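MBD-seq was run on amygdala DNA of 48 mice, 1 library each. Per the study's methods, the authors sonicated DNA, captured methylated fragments, sequenced paired 50 bp reads, aligned them to GRCm38.p5 with Bowtie2 2.1.0, called peaks with MACS and counted reads per peak with DiffBind 2.0.9. The deposited values are raw counts of reads at 187695 loci, with no normalization. The treatment of duplicate reads is not given in the sources used here.

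Groups came from the labels. The study left out 2 Tph2-/- MS samples that the labels do not name, so the 2 with the lowest totals (S20 and S36) were left out, and 46 libraries were fitted. Loci were assigned to genes by overlap with the GENCODE vM21 gene body and 5 kb on either side, and gene sums added the counts of a gene's loci. Loci and sums were each tested over the whole table with edgeR 4.0.16 (R 4.3.3) by its quasi-likelihood test, with TMM scaling, 1 term per group and Benjamini-Hochberg adjustment. Features count as changed by the study's limits, a p before adjustment below 0.01 with an absolute log2 fold change above 0.2. The scripts were tested on simulated data.

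Named by rule were, per contrast, up to 5 loci or sums with the smallest p past the limits (where none did, the single one of lowest p), and for each gene its highest locus per kb, the locus nearest its start and its sum. Loci past these limits beyond 5 in a contrast, CpG-dense loci, members past the limits without S18 to S26 and the other Gad2 locus were named after their values were seen. The genes and lists were chosen with earlier results of these data known. Alternatives were DESeq2 1.42.0, other scalings, a mean count of 20 or more, all 48 libraries, another pair left out, no S18 to S26, a term for S42 to S48, the replicate number as a block, an offset for CpG density and the gene body alone. Counting error is included in the spread between libraries. The sequence and position of some loci are not reported here.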

Additional observations from a re-analysis of the deposited data

Results flagged for a closer look

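Of 150 groups of libraries examined for the named loci and sums, 22 had a library far from the rest by Dixon's test. Its nominal rate of 1 in 20 is for independent, normally distributed values. The values here were CPM without a log, at features named by their p that share libraries, so the 22 cannot be set against that rate. Highest libraries in CPM were 22.9 for Gabrb1 (chr5:72069445-72072217) in Tph2+/- C, 44.6 for Gabrg1 in Tph2+/- MS, 4.81 for Gabrg3 (chr7:57071500-57072413) in Tph2+/- C, 32.8 and 29.8 for Gabrg3 (chr7:57114851-57119466) in Tph2+/+ MS and Tph2+/- C, and 75.6 and 68.3 for Gabrg3 (chr7:57372719-57375178) in Tph2+/+ MS and Tph2+/- MS. They were 4.48 for Gabrr2 in Tph2+/+ C, 3.14 and 1.92 for Gad1 in Tph2-/- C and Tph2-/- MS, 3.19 for Gad2 in Tph2+/+ MS, 3.00 for Nlgn2 (downstream) in Tph2+/+ C, 10.1 for Nlgn2 (coding exon, chr11:69826471-69827556) in Tph2+/- MS and 3.62 for Slc6a11 in Tph2+/+ C. Lowest libraries were 9.49 for Gabrb1 (chr5:72069445-72072217) in Tph2-/- MS and 1.33 for Gabrg3 (chr7:57071500-57072413) in Tph2+/- MS. Among the gene sums, the highest were 9.13 for Gad1 in Tph2+/- C, 95.2 and 97.2 for Gphn in Tph2+/+ MS and Tph2-/- MS, and 16.4 for Slc6a11 in Tph2+/- C, and the lowest were 1.01 for Gabra2 in Tph2+/+ MS and 6.16 for Gabrb2 in Tph2+/- C.

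The interaction of MS with genotype passed the limits before adjustment at Gabrg3 (GE1, log2 fold change -0.42) and Gad2 (GE2, -0.94), both with an adjusted p of 1.0 in edgeR. The libraries left out, S20 and S36, exceeded all 24 C libraries at 47 and 20 of the 152 loci, and the same count was not made over all loci.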

How the results depend on the processing

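Counts are of member loci, or member gene sums, past the limits. The share of all loci or genes past them in each setting is not given here, so a change in count is not a result about the members. For Tph2-/- against Tph2+/+ (1 locus) the count was 0 with total counts, a mean count of 20 or more, a term for S42 to S48, the gene body alone or C libraries alone, and 3 without S18 to S26. For Tph2+/- against Tph2+/+ (2 loci) it was 1 without S18 to S26 and 0 in C or MS libraries alone, where C libraries alone gave 1 sum against 0. For MS over genotypes (5 loci) it was 11 with all 48 libraries and 3 with the term for S42 to S48 or the CpG offset, and the sums (0) were 2 by DESeq2, 3 with all 48 libraries and 1 without S18 to S26. In Tph2+/+ the sums (0) were 1 by DESeq2 and 1 with replicates 2 and 3 of Tph2-/- MS left out instead, and in Tph2+/- the loci (0) were 1 without S18 to S26. In Tph2-/- the loci (4) were 16 with all 48 libraries, 2 with the mean count filter or the other pair left out, and 1 with the term for S42 to S48 or the CpG offset, and the sums (1) were 5 with all 48 libraries and 0 with the other pair left out, the late term, the CpG offset or the gene body alone. GE1 (1 locus) was 2 with total counts and 0 with all 48 libraries or without S18 to S26, with 1 sum against 0 with total counts. GE2 (1 locus) was 0 with total counts, the mean count filter or the CpG offset. Later against earlier C libraries (7 loci) was 3 with the CpG offset, and the gene body alone gave 1 sum against 0. Without S18 to S26 the sign turned for Gabrg3 over genotypes (-0.0122) and, in Tph2-/-, for Gabrr3 (-0.0102) and Gabrb2 (-0.0696). Each of these causes was not tested.

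The replicate numbers did not pair the samples: over 110 same-number pairs the median correlation of deviations was 0.0133 (range -0.150 to 0.244), and 6 of 46 libraries correlated best with their own number. With the replicate block, the locus counts were 0 for GE1, 0 for GE2 and 0 for later against earlier C libraries, where the Gabrg1 locus turned to 0.25, and the other counts stayed within 1.5 times. DESeq2's size factors in edgeR changed no count. Most loci rested on few reads, with a median of 26.9 per library.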
